A study of Rattus norvegicus with 72 samples.

Results

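Rat medial collateral ligament 4 days after it was severed was compared with the same ligament 1 day after it was severed. The comparison takes 5 animals at day 4 and 5 at day 1, 10 of the 72 samples of the series, chosen by their labelled group and day. The severed day 4 group and the severed day 1 group were adult male Sprague-Dawley rats whose ligament was cut under isoflurane, with total RNA of each ligament labelled with Cy3. The sham day 4 and sham day 1 groups, 5 animals each, had bilateral surgery without the cut, and their RNA was labelled with Cy5. All 4 groups received the same anaesthesia and the same buprenorphine schedule, which covered day 1 and had ended by day 4 unless more was needed, so that drug and day cannot be told apart. Each animal gave 1 labelled sample on an Agilent rat whole-genome array, a severed and a sham sample shared each array, and severed ligaments gave more RNA per specimen.

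A cut ligament first fills with blood and with inflammatory cells, mainly neutrophils and then macrophages, which release interleukin-1 and chemokines. Fibroblasts then move in and deposit a provisional matrix, which is later replaced by collagen fibres whose diameter is set by small leucine-rich proteoglycans and whose strength comes from lysyl oxidase cross-links. Matrix metalloproteinases cut this matrix as it is rebuilt.

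The RefSeq promoters of 3 risen genes with different roles are shown, since Mmp12, Postn and Lum were among the few genes that passed in every fit with corrected spot positions that left out a sample. Each is the 250 bases before the annotated start in the rat assembly GRCr8, 5′ to 3′ on the plus strand. The stretches are chr8:12866402-12866651 for Mmp12, chr2:140677811-140678060 for Postn and chr7:34245456-34245705 for Lum. Motifs were searched on both strands: the letters TGANTCA for AP-1, the letters TATAAA for the TATA box and the letters CCAAT for the box of that name, and no match overlapped that of another motif in these stretches. Capitals mark the AP-1 motif and then the TATA box in Mmp12, the TATA box in Postn, and the box of CCAAT, read on the other strand, in Lum.
Mmp12: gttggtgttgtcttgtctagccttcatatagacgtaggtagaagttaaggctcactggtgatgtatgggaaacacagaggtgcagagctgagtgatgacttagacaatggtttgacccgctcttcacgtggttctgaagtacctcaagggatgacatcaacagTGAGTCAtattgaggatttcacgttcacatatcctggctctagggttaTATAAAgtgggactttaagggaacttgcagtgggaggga
Postn: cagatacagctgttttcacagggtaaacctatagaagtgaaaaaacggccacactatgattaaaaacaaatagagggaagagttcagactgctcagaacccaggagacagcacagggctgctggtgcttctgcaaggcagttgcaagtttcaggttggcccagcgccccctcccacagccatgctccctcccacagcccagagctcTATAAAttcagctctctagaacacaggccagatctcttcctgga
Lum: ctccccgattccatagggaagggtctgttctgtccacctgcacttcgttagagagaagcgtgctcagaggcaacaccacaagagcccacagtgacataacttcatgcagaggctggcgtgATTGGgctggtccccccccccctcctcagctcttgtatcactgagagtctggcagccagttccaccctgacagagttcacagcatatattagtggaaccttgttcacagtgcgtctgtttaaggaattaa

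The AP-1 motif of Mmp12 lay 87 to 81 bases and its TATA box 39 to 34 bases before the start. Of 27457 rat promoters, 6.36% held the AP-1 motif, 13.1% the TATA box and 34.3% the CCAAT box on either strand. Of the 67 named genes that rose, 54 had a promoter in the table, and 3.7%, 16.7% and 35.2% of these held the same 3 motifs in that order. Of the 25 that fell, 22 had one, and the shares were 13.6%, 18.2% and 22.7%. These are matches of letters in a window and say nothing of binding.

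Not every array could be read at its labelled spot positions. Each column was set against the median spot ranks of 15 columns that matched each other, and the correlation r was 0.23 for severed day 4 replicate 1, 0.69 for replicate 2, 0.44 for replicate 3, 0.22 for replicate 4 and 0.82 for replicate 5, against 0.74 to 0.83 for the 5 severed day 1 columns. Over part of the arrays of replicates 1 and 3 the intensities belonged to a spot 1 or 2 array rows away. Each spot was then read at its best matching position, and spots that matched poorly were set missing. On the spots kept, r was 0.67 for replicate 1, where 21540 spots moved, and 0.69 for replicate 3, where 4206 moved. The same 15 columns chose the positions and the spots to drop, so that a rise in r was favoured and is no independent check. With 0 spots moved, r also rose, from 0.69 to 0.70 for replicate 2 and from 0.74 to 0.77 for severed day 1 replicate 2. For replicates 1 and 3, the parts of moved and of dropped spots in the rise were not separated. No shift of 1 or 2 array rows brought replicate 4 into place, and larger ones were not tried, so that replicate 4 was left out of the gene values. This reading was chosen after the data were seen, and it left 16.7% of the spots of replicate 1, 5.07% of replicate 2 and 30.2% of replicate 3 missing, against 0% to 6.79% in the day 1 columns. The sham day 4 columns of the same arrays moved alike, sham replicate 1 to an r of 0.67 and sham replicate 3 to 0.70.

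**Figure D1:**
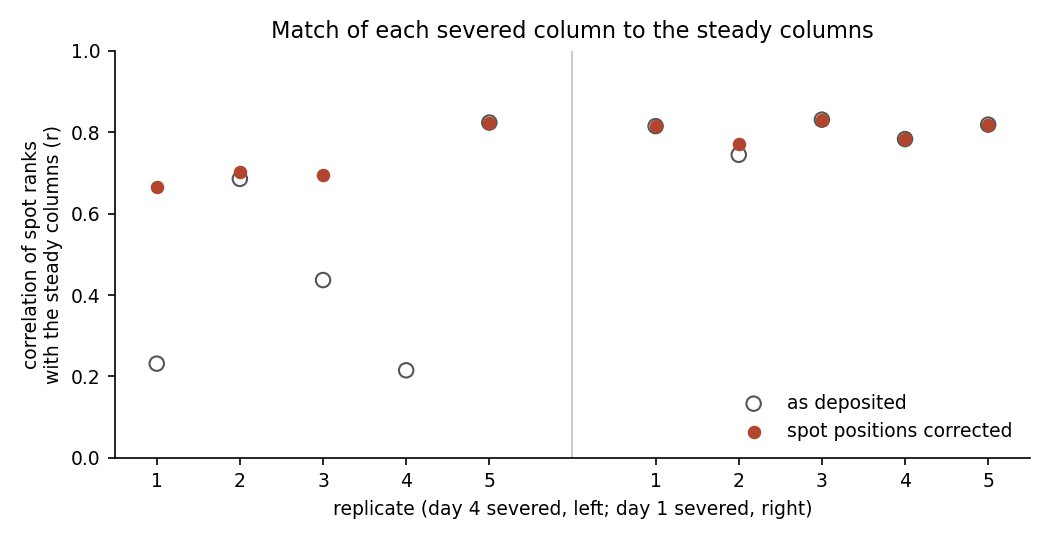
Correlation of the spot ranks of each severed column (y axis, r) with the median ranks of 15 steady columns, by replicate (x axis), day 4 left of day 1. Open circles are the deposited positions and filled circles the corrected ones, with r on the spots kept. The same 15 columns chose the positions, so that a rise is no independent check. Replicates 1 and 3 of day 4 move to 0.67 and 0.69, and replicate 4 has no corrected point.

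As deposited and with all 10 columns, limma with Benjamini-Hochberg adjustment at 0.05 found 1 higher and 0 lower genes of 36787 tested, 0.00272% of them, with 4902 at an unadjusted p under 0.05. Without severed day 4 replicate 4, 2 were higher (0.00591%) and 1 lower (0.00296%) of 33820, together 0.00887%. The higher genes were Mmp12, a macrophage metalloproteinase that cuts elastin, and Cdhr1, a cadherin-related protein known from photoreceptors, and the lower was a probe without a gene name. With spot positions corrected, 111 genes were higher (0.339%) and 52 lower (0.159%) of 32725, together 0.498%, and 16.7% of all genes had an unadjusted p under 0.05. From here on, levels are log2 of quantile-normalised intensity with spot positions corrected, "rose" and "fell" mean past that adjusted threshold in this fit, and differences are day 4 minus day 1 with the standard error. Day 4 values are given in the order of replicates 1, 2, 3 and 5 and day 1 values in that of replicates 1 to 5. The share of 16.7% is over all genes tested, dim ones included. With corrected positions it was 22.3% for probes over 200 in at least 4 columns and 21.2% with spots not found set to missing. For a list of brighter genes, 16.7% is therefore a low mark.

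Of the 14039 named genes tested, 67 rose and 25 fell. None of these 92 overlapped between the groups; every day 4 column was above every day 1 column for 5.2% of all genes tested and below for 5.29%. Over all genes, 163 calls became 21 without severed day 4 replicate 1 and 21 without severed day 1 replicate 1, the lowest of the 9 such fits, and 135 without severed day 1 replicate 2, the highest. Of the 92 named genes, 11 were called without day 4 replicate 1, 13 without day 4 replicate 2, 13 without day 1 replicate 1, 16 without day 1 replicate 3 and 62 without day 1 replicate 2. Of the 92, 22 were called in at least 5 of the 9 fits. Mmp12, Cthrc1, Postn, Lum, Cfi, C1qtnf3, Mfap5, Ccdc80 and Nid2 were called in every one that tested them, and each of the others was lost in at least 1. Of the genes below, Cst3, Ccl11, Dlk1 and Copz2 were called in 0 of the 9. For the 67 risen genes, replicate 1 moved by over 1 log2 unit for 34 on correction, where its median distance from the other day 4 columns was -3.90 as deposited and 0.24 as corrected. Many calls therefore depend on that reading, and the difference as deposited is given beside many of the genes below.

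Genes of the provisional and healing matrix held the 2 largest rises among named genes. Cthrc1, a secreted protein of activated fibroblasts that limits collagen deposition, had levels of 12.98, 13.04 and 12.35 in day 4 replicates 2, 3 and 5, with replicate 1 missing, against 8.14, 9.19, 8.19, 8.19 and 9.68 at day 1. The lowest day 4 ligament was more than 2 log2 units above the highest day 1 ligament, and the difference was 4.12 ± 0.40 (adjusted p = 0.00368 in limma, 2.54 as deposited). Postn encodes periostin, which links collagen to other matrix proteins. Its levels were 13.09, 13.34, 13.36 and 12.65 at day 4, against 8.24, 10.59, 9.03, 7.77 and 10.16 at day 1, a difference of 3.95 ± 0.51 (adjusted p = 0.0107, 2.36 as deposited). The day 4 ligaments lay within 1 log2 unit of each other while the day 1 ligaments were spread over more than 2.

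Sparc encodes osteonectin, a collagen-binding glycoprotein of remodelling tissue. It had levels of 14.77, 15.22 and 14.93 at day 4, with replicate 2 missing, against 12.69, 12.63, 13.18, 13.15 and 12.15 at day 1. The groups were well apart, with a difference of 2.22 ± 0.30 (adjusted p = 0.0164), although it was -3.21 as deposited, where replicates 1, 2 and 3 read 9.55, 6.87 and 6.80. Of the 15 healing glycoprotein genes tested, these 3 rose and none fell. The median difference was 0.44, against -0.01 over all genes. As deposited it was -0.13, against 0.03 over all genes. Fn1, fibronectin of the provisional matrix, averaged 15.48 ± 0.27 at day 4 (SD, n = 3) and 15.69 ± 0.26 at day 1 (SD, n = 5), with overlapping groups. These levels lay near the top of the scale, where a difference may be understated. Spp1, osteopontin of macrophages and bone, had a difference of -2.23 ± 1.12 (adjusted p = 0.34, -3.98 as deposited), and its spot was not found in day 4 replicate 3. Tnn, tenascin-N, had 2.08 ± 0.43 (adjusted p = 0.0574).

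Small leucine-rich proteoglycans bind collagen fibrils and set their spacing. Of the 14 genes of the proteoglycan list tested, 3 rose and none fell, and the median difference was 1.12 (0.97 as deposited). Lum encodes lumican and had levels of 13.15, 13.70, 13.12 and 11.94 at day 4, against 8.90, 10.40, 9.79, 9.66 and 9.68 at day 1. Its difference of 3.29 ± 0.37 (adjusted p = 0.00793) was 3.35 as deposited, with nearly the same level in every column. Aspn encodes asporin, which binds collagen and TGF-beta, and had levels of 14.27, 14.77, 14.60 and 14.15 at day 4, against 9.32, 12.14, 10.80, 9.14 and 11.60 at day 1. All day 4 ligaments were higher, with a difference of 3.84 ± 0.55 (adjusted p = 0.0168), against 0.38 as deposited, where replicates 1 and 3 read 7.95 and 7.04. Ogn, osteoglycin, had levels of 12.90, 13.58, 13.24 and 12.35 at day 4, against 9.41, 11.32, 11.12, 9.30 and 10.66 at day 1, and rose by 2.65 ± 0.45 (adjusted p = 0.0281).

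Dcn, decorin, the main proteoglycan of ligament, did not pass (difference 4.83 ± 1.75, adjusted p = 0.195, 2.63 as deposited). Its levels were 15.40, 15.81, 15.41 and 15.30 at day 4, against 5.64, 5.64, 14.53, 13.70 and 13.73 at day 1. In day 1 replicates 1 and 2 the scanner had marked the spot as not found, and the values there are the floor. Every day 4 value was above the 3 found at day 1. Bgn, biglycan, averaged 15.26 ± 0.21 at day 4 (SD, n = 4) and 14.10 ± 0.85 at day 1 (SD, n = 5), with adjusted p = 0.161, and Vcan, versican of the provisional matrix, had the lowest difference of the list at -0.60, against -1.77 as deposited.

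**Figure D2:**
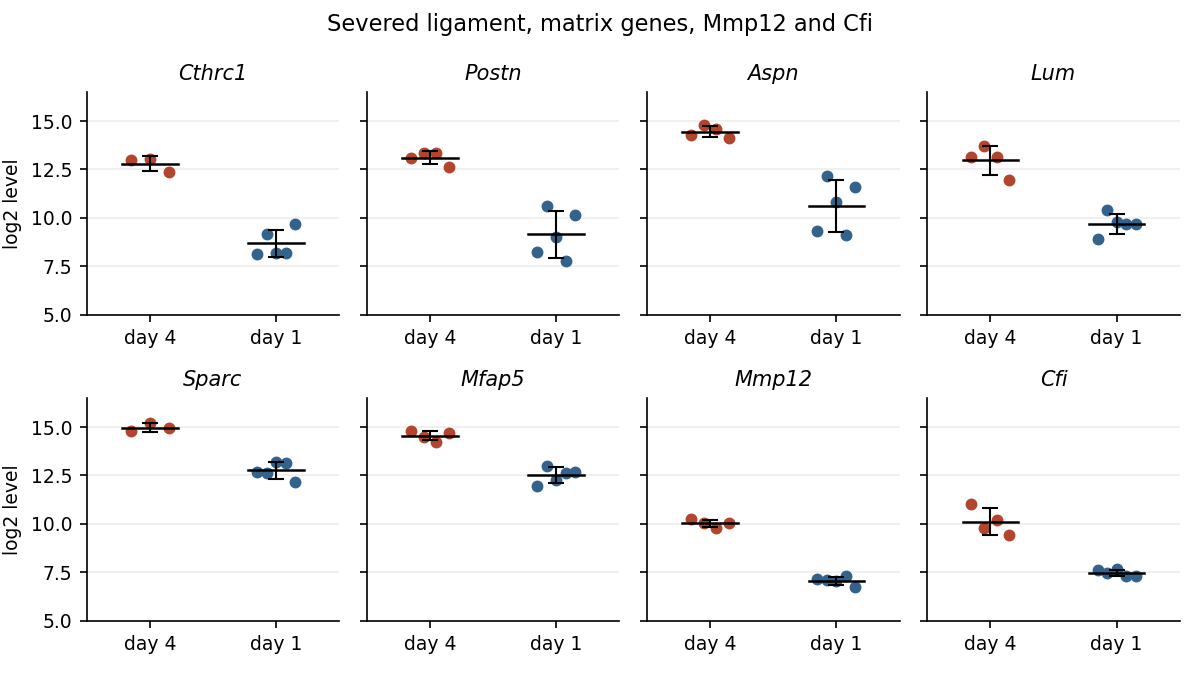
Log2 level (y axis) of 6 matrix genes, Mmp12 and Cfi in severed ligament at day 4 (red, left) and day 1 (blue, right). Points are animals, black lines the mean and SD; no day 4 point lies at or below a day 1 point in any panel.

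Among fibrillar collagens, 3 of the 10 tested rose and none fell. The median difference of 1.67 was the highest of the 35 lists with corrected positions. As deposited it was 0.48, below the 0.97 of the proteoglycan list. Col5a2, a chain of type V collagen that starts fibrils and limits their width, had levels of 15.14, 15.06, 14.77 and 14.29 at day 4, against 12.03, 13.21, 12.58, 13.66 and 12.83 at day 1. It rose by 1.95 ± 0.33 (adjusted p = 0.0281), with no overlap. Col5a3, another type V chain, rose by 2.40 ± 0.43 (adjusted p = 0.0455) with only 2 day 4 values, and as deposited its difference was -0.50. Col11a2, a chain of type XI collagen, rose by 1.43 ± 0.27 (adjusted p = 0.0443).

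The chains of the bulk collagens were at or near the top of the scale at both days. Col1a1 averaged 15.71 ± 0.25 at day 4 (SD, n = 3) and 15.52 ± 0.49 at day 1 (SD, n = 5), with a difference of -1.76 as deposited, and Col3a1 averaged 15.99 ± 0.01 at day 4 (SD, n = 3) and 15.23 ± 0.63 at day 1 (SD, n = 5). Intensities over 60000, near the upper limit of the scanner, were read in 1 day 4 and 2 day 1 columns for Col1a1 and in 3 day 4 and 2 day 1 columns for Col3a1, so that a larger difference could not be measured. Col1a2 had only 2 day 4 values, and its spot was not found in day 1 replicate 1.

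Of 14 other collagens, 1 rose and none fell. This was Col4a1, a chain of the basement membrane collagen, with levels of 12.63, 12.13, 12.58 and 12.52 at day 4, against 10.74, 10.75, 10.27, 11.14 and 10.76 at day 1. It rose by 1.74 ± 0.24 (adjusted p = 0.0159, 0.12 as deposited), and both groups were narrow. Nid2, nidogen of basement membranes, had levels of 9.16, 8.91, 9.43 and 9.09 at day 4, against 7.40, 7.54, 7.52, 7.03 and 7.42 at day 1, and rose by 1.77 ± 0.22 (adjusted p = 0.0107, 0.96 as deposited).

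Of 20 collagen processing and cross-linking genes, 1 rose, none fell, 17 differences were above 0 and the median was 0.73 (0.34 as deposited). Loxl1, a lysyl oxidase that acts mainly on elastin, had levels of 11.92, 11.63, 11.56 and 12.31 at day 4, against 9.86, 10.56, 10.20, 10.44 and 10.39 at day 1. It rose by 1.56 ± 0.25 (adjusted p = 0.0241, 0.15 as deposited). Lox, the lysyl oxidase of collagen, averaged 14.47 ± 0.82 at day 4 (SD, n = 3) and 12.36 ± 0.73 at day 1 (SD, n = 5), and did not pass (adjusted p = 0.0643, difference 0.04 as deposited). Outside the list, Fkbp7, a prolyl isomerase of the endoplasmic reticulum, rose by 2.87 ± 0.40 (adjusted p = 0.0159), and its relatives in protein folding Fkbp14 and Ppic rose by 2.19 and 2.17, against 1.60 and 0.52 as deposited. Efemp2, fibulin-4, which is needed for elastic fibres, rose by 1.83 ± 0.28 (adjusted p = 0.0204). Dpt, dermatopontin, which binds decorin, rose by 2.46 ± 0.38 (adjusted p = 0.024, 0.62 as deposited).

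Among ligament and tendon markers, 3 of 14 rose, none fell, and the median was 0.52 (0.09 as deposited). Mfap5, a microfibril protein, had levels of 14.82, 14.51, 14.24 and 14.68 at day 4, against 11.94, 13.01, 12.27, 12.62 and 12.68 at day 1. The difference of 2.06 ± 0.27 (adjusted p = 0.0107) was 0.02 as deposited, where replicate 1 read 6.57. Comp, cartilage oligomeric matrix protein, which helps collagen assemble, had levels of 14.18, 14.67, 13.82 and 13.26 at day 4, against 11.10, 12.48, 12.76, 11.87 and 11.50 at day 1. It rose by 2.04 ± 0.38 (adjusted p = 0.0419, 0.10 as deposited).

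Cilp, an intermediate layer protein of cartilage and tendon, had levels of 11.66, 12.62, 11.61 and 13.10 at day 4, against 9.41, 10.85, 10.59, 9.82 and 9.94 at day 1, and rose by 2.13 ± 0.38 (adjusted p = 0.0377). Tnmd, tenomodulin, a membrane protein that marks mature tendon and ligament cells, had levels of 12.26, 13.78, 12.69 and 12.54 at day 4, against 9.12, 11.92, 11.07, 10.23 and 9.48 at day 1. The groups did not overlap, but the difference of 2.45 ± 0.52 did not pass (adjusted p = 0.0574). Thbs4, a thrombospondin of tendon, averaged 15.87 ± 0.22 at day 4 (SD, n = 4), with 3 columns over 60000, and 15.10 ± 0.48 at day 1 (SD, n = 5). Tnmd, Comp, Thbs4 and Fmod were above the negative-control spots in every column read.

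Other named genes that rose were on none of the lists. Fap, a serine protease of activated fibroblasts, rose by 2.03 ± 0.28 (adjusted p = 0.0204), and Lgals1, galectin-1, rose by 1.84 ± 0.34 (adjusted p = 0.0475); each had 3 day 4 values, and the deposited differences were -1.13 and -2.56. Ccdc80, a secreted protein that binds matrix, had levels of 11.76, 11.28, 11.68 and 11.37 at day 4, against 8.78, 9.32, 8.89 and 9.57 in day 1 replicates 1, 3, 4 and 5, with replicate 2 missing. It rose by 2.38 ± 0.27 (adjusted p = 0.00793, 0.45 as deposited). Sdc2, a heparan sulphate proteoglycan of the membrane, rose by 1.76 ± 0.33 (adjusted p = 0.0429, 0.59 as deposited), Enpp1, which makes pyrophosphate, by 1.97 ± 0.35 (adjusted p = 0.0377, 0.73 as deposited), and Cav1, the main protein of caveolae, by 1.61 ± 0.24 (adjusted p = 0.0203).

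Of 24 matrix metalloproteinases and related proteases, 2 rose, none fell, and the median difference was -0.03 (0.05 as deposited). Mmp12 had levels of 10.23, 10.05, 9.80 and 10.06 at day 4, against 7.17, 7.08, 7.03, 7.30 and 6.75 at day 1. At day 1 it was above the negative controls in 3 of 5 columns, and at day 4 in all 4. The difference of 2.96 ± 0.22 (adjusted p = 0.000269) was 3.04 as deposited (adjusted p = 0.00294). Mmp2, gelatinase A of fibroblasts, had levels of 13.24, 13.41, 13.22 and 12.31 at day 4, against 11.29, 11.12, 11.32, 12.29 and 11.10 at day 1. Its groups touched closely, 12.31 in day 4 replicate 5 beside 12.29 in day 1 replicate 4, and it rose by 1.62 ± 0.32 (adjusted p = 0.0475).

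Mmp13, a collagenase, was uneven. Its levels were 14.42, 13.68 and 10.71 in day 4 replicates 1, 2 and 5, with replicate 3 missing, against 9.69, 7.84, 9.70, 8.45 and 11.32 at day 1. The difference of 3.54 ± 0.86 did not pass (adjusted p = 0.0865, 0.82 as deposited), and day 4 replicate 5 lay below day 1 replicate 5. Mmp14, the membrane activator of Mmp2, had 1.60 ± 0.36 (adjusted p = 0.065, -0.31 as deposited) and Ctsk, a collagen-cutting cathepsin, 2.23 ± 0.59 (adjusted p = 0.106, 0.71 as deposited). Mmp3, stromelysin, had -0.91 ± 0.56 (adjusted p = 0.429).

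Among 13 protease inhibitors, 1 rose and none fell. Cst3, cystatin C, an inhibitor of cathepsins, had levels of 16, 15.96, 15.46 and 15.60 at day 4, against 14.48, 14.45, 14.86, 14.22 and 14.05 at day 1. It rose by 1.34 ± 0.25 (adjusted p = 0.0394), with 2 of 4 day 4 columns over 60000, so that a larger difference could not be measured. Timp1, the inhibitor of metalloproteinases induced in wounds, averaged 15.27 ± 0.27 at day 4 (SD, n = 4) and 15.35 ± 0.39 at day 1 (SD, n = 5), which overlap and lie near the top of the scale. Slpi, an inhibitor of neutrophil elastase, had the lowest difference of the list, -2.82 ± 0.74, and did not pass (adjusted p = 0.11, -5.34 as deposited).

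Complement genes moved both ways: of 16 tested, 2 rose and 1 fell. Cfi, factor I, which cuts C3b and C4b, had levels of 11.02, 9.81, 10.21 and 9.41 at day 4, against 7.61, 7.45, 7.68, 7.29 and 7.33 at day 1, and rose by 2.64 ± 0.31 (adjusted p = 0.00793). C1s, a protease of the first component, had levels of 12.74, 13.09, 12.85 and 12.52 at day 4, against 9.52, 11.57, 11.40, 10.60 and 10.56 at day 1, and rose by 2.07 ± 0.38 (adjusted p = 0.0385, 0.61 as deposited). C5ar1, the receptor for C5a on neutrophils and macrophages, had levels of 10.91, 10.56, 10.34 and 10.65 at day 4, against 12.41, 12.87, 11.74, 13.02 and 12.61 at day 1. It fell by 1.91 on the log2 scale (SE 0.28, adjusted p = 0.0195). C1qtnf3, a relative of complement C1q made by cartilage and fat, had levels of 9.69, 9.09, 9.31 and 9.71 at day 4, against 7.04, 7.25, 7.25, 6.87 and 6.61 at day 1, and rose by 2.45 ± 0.24 (adjusted p = 0.00368, 1.77 as deposited).

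**Figure D3:**
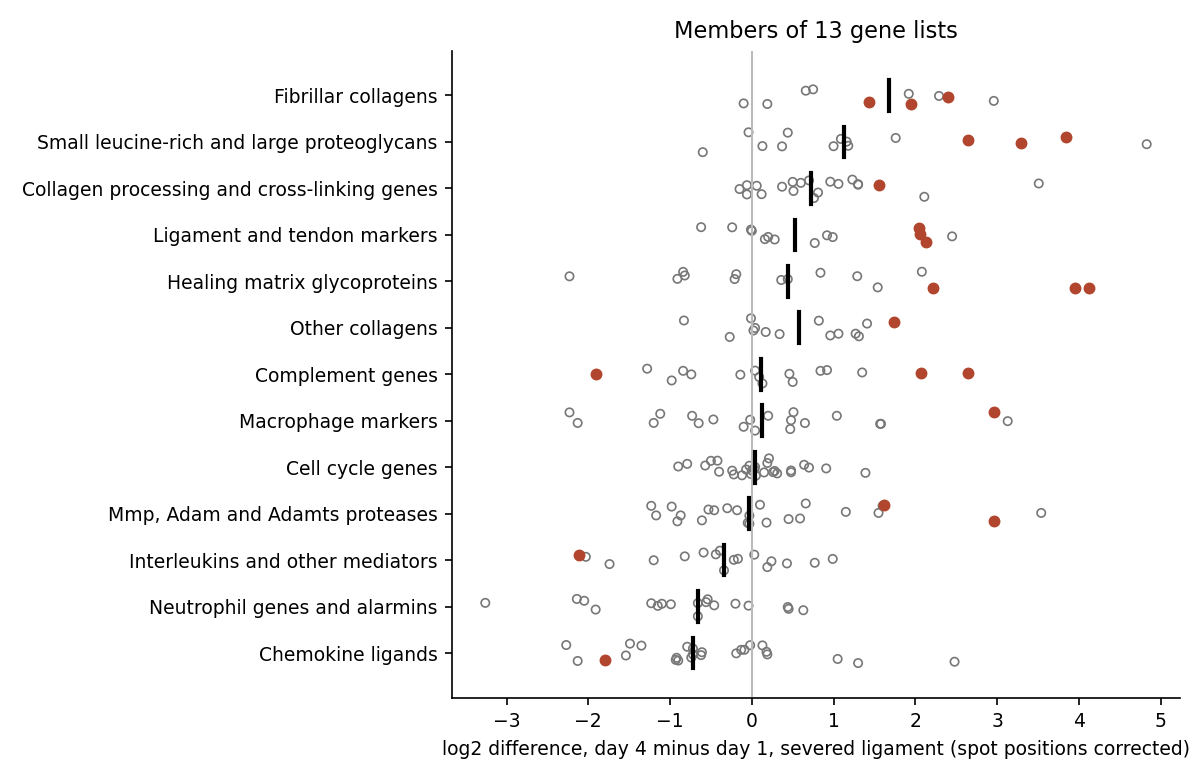
Difference of day 4 minus day 1 in severed ligament (x axis, log2) for every tested member of 13 gene lists (rows), with spot positions corrected. Filled points passed the adjusted threshold and black bars are list medians, from 1.67 for fibrillar collagens to -0.72 for chemokine ligands.

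Genes of acute inflammation lay on the lower side, and few passed. Of 17 interleukins and other mediators, 1 fell and none rose, with a median of -0.34. Il1rn, the antagonist that blocks the interleukin-1 receptor, had levels of 9.38, 9.72, 10.00 and 9.55 at day 4, against 11.82, 12.06, 10.80, 11.82 and 12.37 at day 1. It fell by 2.11 (SE 0.31, adjusted p = 0.0193), with no overlap. Il1b, interleukin-1 beta itself, had levels of 10.30, 10.39, 10.99 and 9.26 at day 4, against 11.57, 11.88, 11.92, 11.07 and 13.46 at day 1. Every day 4 value was below every day 1 value, but the difference of -1.74 ± 0.46 did not pass (adjusted p = 0.0996, -2.68 as deposited).

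Of 25 chemokine ligands, 1 fell and none rose, with a median of -0.72 and 10 below 0 and 2 above 0 at an unadjusted p under 0.05, beside the 16.7% of all genes. Ccl11, eotaxin, which draws eosinophils, had levels of 6.65, 7.01, 7.23 and 6.50 at day 4, against 7.78, 9.40, 8.10, 8.68 and 9.26 at day 1. Since no day 4 column was above the negative controls, it was at least 2.97-fold lower (adjusted p = 0.0475). Cxcl1, which draws neutrophils, had levels of 6.35, 5.82, 7.64 and 6.54 at day 4, against 7.67, 8.19, 8.56, 8.81 and 10.32 at day 1 (difference -2.13 ± 0.49, adjusted p = 0.0728, -2.45 as deposited). Its groups came within 0.1 log2 unit of each other and it was above the negative controls in 1 day 4 column. Ccl2, which draws monocytes, had levels of 13.93, 13.59 and 13.53 in day 4 replicates 1, 2 and 5, against 14.63, 14.92 and 15.16 in day 1 replicates 3, 4 and 5; its spot was not found in day 1 replicates 1 and 2, and no difference can be read from the fit.

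None of the 18 neutrophil genes and alarmins passed in limma, with a median of -0.66 and 11 below 0 and 1 above 0 at an unadjusted p under 0.05, beside the same 16.7%. S100a8, a calcium-binding alarmin stored in neutrophils, had levels of 10.08, 10.12, 10.34 and 8.01 at day 4, against 12.34, 10.90, 11.11, 11.50 and 13.03 at day 1. All day 4 ligaments were lower, with replicate 5 apart, and the difference was -2.14 ± 0.53 (adjusted p = 0.0862). S100a9, its partner, had -3.26 ± 0.87 (adjusted p = 0.108, -4.13 as deposited). The summed linear level of the 10 neutrophil genes measured in all 9 columns was 1349 to 2667 at day 4, against 4242 to 11383 at day 1. Of these 10, 4 were not above the negative controls in any day 4 column and 2 not in any day 1 column. The part of neutrophil RNA in the other falls was not tested. In bulk ligament, fewer cells of a type and less RNA per cell cannot be told apart.

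Macrophage markers did not move together: of 20 tested, 1 rose (Mmp12), none fell, and the median was 0.12 (-0.21 as deposited). Of the 20, 11 were above 0, and 6 above and 3 below 0 had an unadjusted p under 0.05, beside the 16.7% of all genes. The highest was C1qb, a chain of complement C1q, at 3.13 ± 1.37 (adjusted p = 0.278), whose spot was not found in day 1 replicate 2. For the 12 macrophage markers measured in all 9 columns, the summed linear level was 133645 to 173023 at day 4, against 111972 to 180254 at day 1. Arg1, arginase of repair macrophages, averaged 10.95 ± 0.28 at day 4 (SD, n = 4) and 11.60 ± 0.45 at day 1 (SD, n = 5), a difference of -0.65 and of -1.88 as deposited, and Cd68, a lysosomal protein of macrophages, had a difference of -1.20 ± 0.64 (adjusted p = 0.36, -0.40 as deposited).

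Other falls had no list in common. Ankrd2, a stress-responsive protein of slow muscle fibres, had levels of 8.04, 5.64, 7.36 and 7.68 at day 4, against 11.66, 10.24, 12.78, 9.75 and 10.53 at day 1. It fell by 3.81 (SE 0.61, adjusted p = 0.0241), and its spot was not found in day 4 replicates 2 and 5. The size rests in part on the floor value of replicate 2: it was -3.56 with a floor of 100 and -3.29 with spots not found set to missing. Rbm38, an RNA-binding target of p53, had levels of 7.52, 7.35, 7.36 and 6.98 at day 4, against 8.84, 10.03, 8.73, 9.91 and 10.06 at day 1. It fell by 2.21 (SE 0.33, adjusted p = 0.0195), and was above the negative controls in 3 of 4 day 4 columns. The proteasome genes Psme3 and Psmd1 fell by 1.48 and 1.33, and Dlk1, a Notch-related protein of immature cells, was at least 3.41-fold lower.

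**Figure D4:**
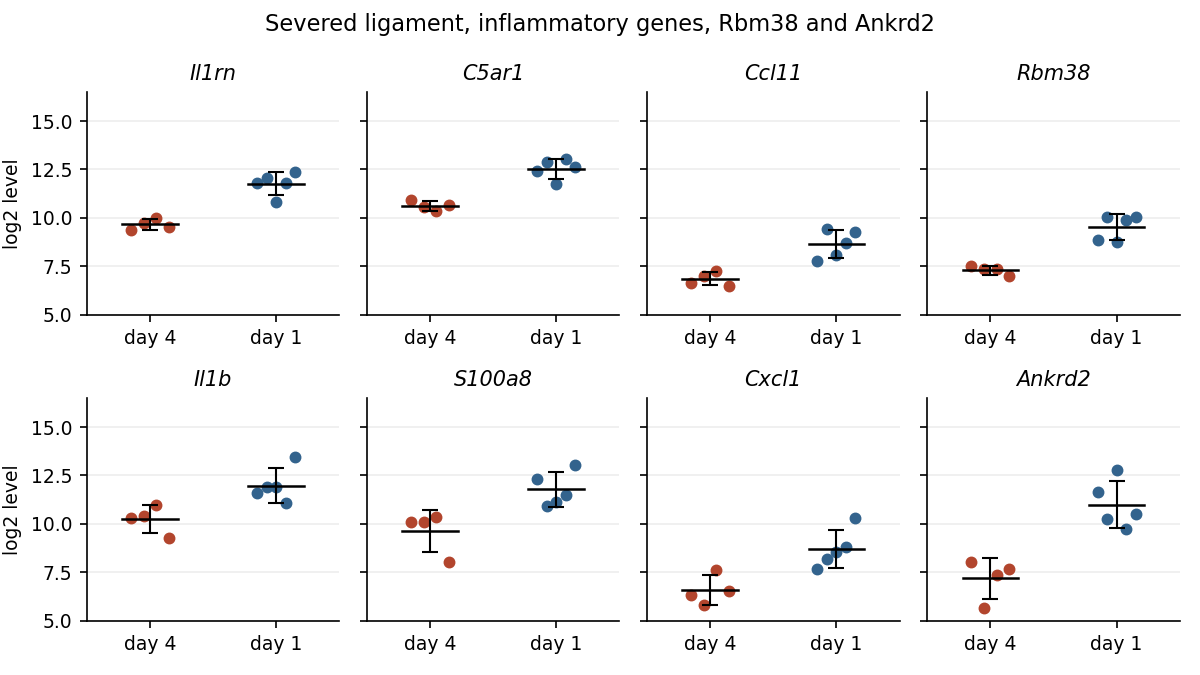
Log2 level (y axis) of 6 inflammatory genes, Rbm38 and Ankrd2 in severed ligament at day 4 (red, left) and day 1 (blue, right); points are animals, black lines the mean and SD. Il1rn, C5ar1, Ccl11, Rbm38 and Ankrd2 passed the threshold, and Il1b, S100a8 and Cxcl1 did not.

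Genes of other cells in the specimen were read as well. No skeletal muscle gene of 23 passed in limma, with a median of -0.52 corrected and -1.91 as deposited. At an unadjusted p under 0.05, 4 were below 0 and 1 above 0, beside the 16.7% of all genes. The summed level of the 9 muscle genes measured in all 9 columns was 39920 to 157409 at day 4, against 46162 to 157941 at day 1, so that the groups overlapped. The part of muscle RNA in the fall of Ankrd2 was not tested. Myh7, the myosin of slow fibres, had -4.68 ± 0.87 (adjusted p = 0.0503, -4.04 as deposited) from 2 day 4 values, 1 of them not found. The summed level of 4 red blood cell genes was 22636 to 81580 at day 4, against 80323 to 143298 at day 1, and Hbb, a globin, had -1.84 ± 0.43 (adjusted p = 0.0748). Of 8 red blood cell genes tested, none passed, 2 were above 0 and the median was -1.04 (-1.73 as deposited). Hba-a1, an alpha globin, had 2.67 ± 2.09 (adjusted p = 0.542, -0.11 as deposited), with its spot not found in day 1 replicate 1. The summed level of the 9 endothelial genes measured in all 9 columns was 1208 to 4144 at day 4, against 3362 to 7311 at day 1. Of 16 endothelial genes tested, 0 passed, 11 were above 0 and the median was 0.17 (0.02 as deposited). The sum is weighted to the brightest genes and does not stand for the list. At an unadjusted p under 0.05, 2 endothelial genes were above and 1 below 0, beside the same 16.7%. None of 28 cell cycle genes passed (median 0.04, 2 above and 2 below 0 at an unadjusted p under 0.05, beside the same 16.7%), among them Ccna2, cyclin A2, at 0.48 ± 0.31.

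The median of the negative-control spots was 15 to 47 in the day 4 columns with corrected positions, against 102 to 157 in the day 1 columns. A low gene at day 1 therefore stood on a higher background, and the part of this in the differences was not tested. Mmp12 was not above the negative controls in every day 1 column. The day 1 levels of C1qtnf3 were about as low, and those of Nid2 and Cfi were little higher. With the negative-control median of each column subtracted, a setting chosen after the data were seen, 310 genes were higher and 184 lower of 12357.

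The same step of time was also read in sham ligament, which was not cut, in Cy5. As deposited, 59 genes were higher (0.476%) and 116 lower (0.936%) of 12399 tested, together 1.41%, with a median over all genes of -0.32. Median scaling in place of quantile normalisation gave 38 higher and 443 lower, with a median of -0.68. With quantile normalisation and spot positions corrected, 211 were higher (1.75%) and 282 lower (2.34%) of 12028, together 4.1%. The same filter on dim probes kept 32725 genes in severed ligament. Neither the shares nor passing in 1 fit and not the other can therefore be compared directly. With negative controls subtracted as well, the severed fit called 494 of 12357 genes, or 4%. As deposited, leaving out any of sham day 1 replicates 1 to 4 left 0 calls, with 1692 to 1824 genes at an unadjusted p under 0.05, and quantile normalisation over all 72 columns left 0, with 4163. Of the 92 named genes called in severed ligament, 81 could be tested in sham ligament. There 23 passed in the same direction and none in the opposite one. Severed and sham samples share arrays and the same reading of spot positions, so that this overlap is no independent check. The sham gene values below have spot positions corrected, and the deposited differences are not given beside them. The correction left 18.7% of the spots of sham day 4 replicate 1 and 30.2% of replicate 3 missing. With corrected positions, no sham fit that left out a replicate was run.

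Cthrc1 averaged 11.74 ± 0.72 at sham day 4 (SD, n = 5) and 8.90 ± 0.32 at sham day 1 (SD, n = 5), a rise of 2.84 ± 0.34 (adjusted p = 0.00585). Aspn rose by 2.46 ± 0.37 in sham ligament (adjusted p = 0.0111), Lum by 1.53 ± 0.27 (adjusted p = 0.0167) and Mfap5 by 1.85 (adjusted p = 0.0184). Postn had 1.84 ± 0.49 (adjusted p = 0.0569) and Mmp12 1.87 ± 0.52 (adjusted p = 0.0647). Il1rn fell by 1.73 in sham ligament (adjusted p = 0.0327), and Il1b, which did not pass in severed ligament, fell by 2.16 (adjusted p = 0.00834). S100a8 likewise fell by 1.94 in sham ligament (adjusted p = 0.0131). Mmp3 fell by 3.36 there (adjusted p = 0.00531), to a mean of 7.38 ± 0.74 at sham day 4, against 10.73 ± 0.54 at sham day 1 (SD, n = 5 each).

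Whether the change differed between severed and sham ligament was tested as the severed difference minus the sham difference. As planned, 0 of 23154 genes passed in limma, with 1088 at an unadjusted p under 0.05, and the same fit with spot positions corrected also called 0. Median scaling moved the median over all genes to 0.93 and called 1277 higher and 2 lower. Severed and sham samples share arrays, and with the array as a random block and spot positions corrected 74 genes were higher (0.358%) and 25 lower (0.121%) of 20661, together 0.479%. Leaving out the array of day 4 replicate 2 left 4 calls over all genes, that of day 4 replicate 1 left 5, that of day 1 replicate 5 left 12, and that of day 4 replicate 5 gave 164. Of the 88 severed calls that could be tested so, 10 passed. These 88 were picked by the same severed difference that enters this contrast, so that their share is no independent check. Dye and surgery cannot be told apart in a level, since all severed samples were Cy3 and all sham samples Cy5, and the contrast is free of this only as far as the dye adds a constant on the log scale.

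Copz2, a subunit of the vesicle coat COPI, had a difference of 1.68 (adjusted p = 0.039) between its severed change of 1.52 and its sham change of -0.10. Pros1, protein S, an anticoagulant that also bridges dying cells to phagocytes, had 1.95 (adjusted p = 0.0276) between 1.40 and -0.34. Rbm38 had -1.79 (adjusted p = 0.0329), with 2 sham day 4 columns at the floor. Lox had 2.45 (adjusted p = 0.0466) and Tnn 2.59 (adjusted p = 0.0335), although neither passed within severed ligament, and Arg1 had -2.30 (adjusted p = 0.0497). Cst3 had 1.53 (adjusted p = 0.00782), but its sham levels of 15.84 to 16 lay at the upper limit of the scale in all 10 columns, where no change could show, and its severed day 4 levels were limited as well. Of the 9 fits that left out an array, Cst3 passed in 7, Rbm38 and Copz2 in 3 each, Pros1 and Lox in 2 each, Tnn in 1 and Arg1 in 0. For Cthrc1, Postn, Aspn and Lum the difference was above 0, at 1.22, 2.21, 1.39 and 1.72, and did not pass (adjusted p from 0.0671 to 0.241).

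**Figure D5:**
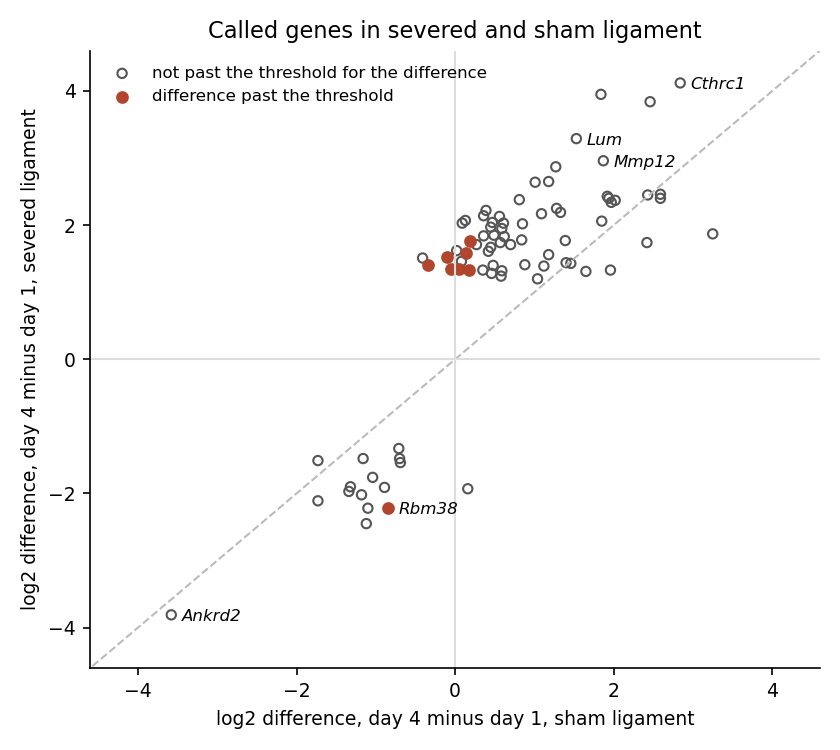
Difference of day 4 minus day 1 in severed ligament (y axis, log2) against that in sham ligament (x axis, log2) for the 81 called genes with a sham value; the dashed line marks equal change. Filled points are the 8 of them whose severed and sham changes differ past the threshold with the array as a random block.

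Growth factors showed no called member. Of 27 genes of the TGF-beta, activin and BMP family, none passed in limma (median 0.31). At an unadjusted p under 0.05, 1 was above and 3 were below 0, beside the 16.7% of all genes. Tgfb3 averaged 9.16 ± 0.47 at day 4 (SD, n = 4) and 8.70 ± 0.58 at day 1 (SD, n = 5). Of 10 insulin-like growth factors and binding proteins none passed either, with 4 above 0 and 0 below 0 at an unadjusted p under 0.05, beside the same 16.7%. Igf1, a growth factor for ligament fibroblasts, averaged 14.81 ± 0.33 at day 4 (SD, n = 4) and 13.86 ± 0.76 at day 1 (SD, n = 5). Among 13 metallothioneins and glucocorticoid targets, Mt1, a metal-binding protein induced by glucocorticoids, had -1.32 ± 0.43 in severed ligament (adjusted p = 0.155, -2.69 as deposited) and fell by 2.43 in sham ligament (adjusted p = 0.00793).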

How the data were processed

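Total RNA of single ligaments was hybridised to Agilent rat arrays, a Cy3 severed and a Cy5 sham sample per array, per the labels. The deposited table holds background-subtracted intensity per spot with scanner flags, per the labels and the file headers; the deposited value table of the series matched log2 intensity minus a constant per column. A floor of 50 was set, log2 taken, columns quantile-normalised, probes over 100 in at least 3 columns kept, spots of a probe averaged and the brightest probe used per gene. limma 3.58.1 (R 4.3.3) tested 4 contrasts (two-sided, Benjamini-Hochberg, 0.05): severed with all 10 columns, severed without day 4 replicate 4, sham, and severed minus sham. Of 41012 probes, 45.07% had a RefSeq gene name.

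After the data were seen, each spot was also read at its own position or 1 or 2 array rows away, whichever best matched 15 steady columns over 13 by 13 spots, and set missing where the match was under 0.7 of the usual. The steady columns include the severed day 1 columns. On simulated data for the severed comparison without day 4 replicate 4, the fit of 33820 genes as deposited called 4.41%, 45.5% and 81.8% of genes changed by 1, 2 and 4 log2 units with 3 false calls. The fit of 32725 genes with corrected positions called 10.3%, 75.8% and 98.5% with 9 false calls. Whether reading spots at other positions adds false calls was not tested.

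The members and gene lists were chosen with earlier results of these data known. Named genes were the 15 with the lowest p in each direction at a log2 difference of at least 1 in the planned fit without day 4 replicate 4, of which 2 higher and 0 lower passed as deposited and 14 and 8 with corrected positions, together with preset key genes, list members that passed, and the highest and lowest of each list. The text gives those the results turn on. Genes that passed only with corrected positions were chosen after their values were seen. The number of arrays limits the precision. Arrays were recognised by identical flags in a Cy3 and a Cy5 column; slide and scan date were not used here. Replicate numbers gave correlations of deviations between severed day 4 and day 1 of -0.129 to 0.14 as deposited, and each animal gave 1 sample.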

Additional observations from a re-analysis of the deposited data

Results flagged for a closer look

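Of 60 groups of 4 or 5 severed ligaments, 3 held a sample far from the others, where chance flags about 1 group in 20. Mmp2 read 12.29 in severed day 1 replicate 4, above the other day 1 ligaments at 11.10 to 11.32. Nid2 read 7.03 in the same ligament, below the others at 7.40 to 7.54. S100a8 read 8.01 in severed day 4 replicate 5, below the others at 10.08 to 10.34.

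With the array as a random block and spot positions corrected, 44 named genes passed the test of severed minus sham change (limma, adjusted p under 0.05). Of these, 36 were above 0 and 8 below 0, and 13 are given here. The difference was above 0 for Tnn (2.59), Lox (2.45), Pros1 (1.95), Copz2 (1.68), Sdc2 (1.58), Cst3 (1.53), Snx7 (1.47), Bzw1 (1.34) and Usp34 (1.18). It was below 0 for Arg1 (-2.30), Dlk1 (-2.16), Ccl11 (-1.89) and Rbm38 (-1.79). Without the array as a block, none of these passed. Many of the genes given were picked by their severed change, which enters this contrast, so that their number is no independent check. Of the 9 fits with the block that left out an array, Cst3 and Bzw1 passed in 7, Dlk1 in 5, Snx7 in 4, Usp34, Sdc2, Copz2, Ccl11 and Rbm38 in 3, Pros1 and Lox in 2, Tnn in 1 and Arg1 in 0. The severed day 4 levels of Cst3 were in part, and its sham levels wholly, at the upper limit of the scale, and Ccl11 and Dlk1 were too low in sham ligament to be tested there.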

How the results depend on the processing

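Over 134 alternative counts of genes past the threshold, 41 stayed within 1.5 times the planned count and 93 did not, so that the number of calls depends on the processing; the cause was not tested. For severed ligament with all 10 columns (1 call) the counts were 0 with quantile normalisation over all 72 columns, 0 with median scaling, 0 with a floor of 20, 20 with a floor of 100, 0 for probes over 200 in at least 4 columns, 153 with spots not found set to missing, 4 with windows of 500 spots set to missing, 927 in a fit of all 72 columns, 5 with array weights, 3316 on the series value table (161 higher, 3155 lower) and 46 with array blocks that do not match set to missing. Without severed day 4 replicate 4 (3 calls) they were, for the same settings, 0 (72-column quantile), 0 (median scaling), 227 (floor of 100), 8 (over 200), 673 (not found missing), 408 (72-column fit), 7 (weights), 6288 (series value table, 238 higher and 6050 lower) and 73 (array blocks), and further 35 with negative controls subtracted and 163 with spot positions corrected. With corrected positions, 494 were called with negative controls subtracted, 1562 with median scaling, 493 with a floor of 100, 382 for probes over 200 and 485 with spots not found set to missing. In sham ligament (175 calls) the counts were 0 (72-column quantile), 481 (median scaling), 111 (floor of 100), 44 (over 200), 603 (not found missing), 423 (windows), 36 (72-column fit), 12 (series value table), 522 (array blocks) and 493 (corrected positions), and 485 without sham day 4 replicates 1 and 3. For severed minus sham (0 calls) they were 1279 with median scaling, 4 with a floor of 100, 3 on the series value table, 189 with the array as a random block and 99 with corrected positions as well. Without severed day 4 replicates 1, 3 and 4, 1 gene was called in severed ligament.

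Leaving out 1 replicate at a time gave 0 to 68 calls with all 10 columns, 1 to 234 without day 4 replicate 4 (234 without day 4 replicate 5), 21 to 135 with corrected positions (21, 25, 52 and 116 without day 4 replicates 1, 2, 3 and 5, and 21, 135, 24, 67 and 79 without day 1 replicates 1 to 5), 0 to 375 in sham ligament, and 0 to 1 for severed minus sham. With the array as a random block and corrected positions, leaving out an array gave 5, 4, 40 and 164 calls for those of day 4 replicates 1, 2, 3 and 5, and 33, 33, 109, 19 and 12 for those of day 1 replicates 1 to 5.

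Replicate numbers did not pair the samples: with corrected positions, same-numbered deviations correlated at -0.002 to 0.049. With the replicate block, 0 genes were called in severed ligament without day 4 replicate 4, 0 with corrected positions as well, 1 with all 10 columns, 0 in sham ligament and 0 for severed minus sham.

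Among the genes named, the sign turned against the planned fit without severed day 4 replicate 4 for the 7 genes given here, among others. None of the 7 passed as deposited, and nearly all turns came with corrected positions. Hba-a1 turned as well, from -0.11 as deposited to 2.67 with corrected positions. Sparc (-3.21 planned) was 2.22 with corrected positions, 2.23 with negative controls subtracted as well, 3.16 with median scaling, 2.22 with each of the floor of 100, the filter of 200 and not-found spots missing, and 2.08 to 2.33 (2.08, 2.19, 2.21, 2.24, 2.33) when a replicate was left out. Fap (-1.13) was 2.03, 2.34 and 2.87 in the first 3 of these settings, 2.03 in the next 3, and 2.03 to 2.19 (2.04 in most) without a replicate. Lgals1 (-2.56) was 1.84, 1.85 and 2.99, and 1.84 in the next 3. Col5a3 (-0.50) was 2.40, 2.59 and 3.11, 2.40 in the next 3, 2.63 without day 1 replicate 5, and 2.38 as deposited with not-found spots missing. Mmp14 (-0.31) was 1.62 with negative controls subtracted, 2.44 with median scaling, 1.60 with the filter of 200 and with not-found spots missing, and 1.88 without day 1 replicate 4. Col1a1 (-1.76) and Fmod (-1.19) were 1.81 and 1.97 with median scaling and corrected positions.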
